A study of Mus musculus with 6 samples.

Results

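The genes described here are 7 genes of cholesterol synthesis and its sterol control: Srebf2, Hmgcs1, Idi1, Sqle, Lss, Dhcr7 and Insig1. They were taken as a named set, by gene symbol, from a table of 49585 mouse genes, and 7 of 7 were found. No member is itself a receptor for LDL, so genes of lipoprotein uptake were read from a separate list. The 2 groups are AML12 cells, an immortalised mouse hepatocyte line, 24 h after transfection with a construct carrying the open reading frame of Zac1, and AML12 cells 24 h after transfection with one carrying EGFP, a fluorescent protein that served as the control. Zac1, the product of the imprinted gene Plagl1, is a DNA-binding regulator of the zinc-finger type. Each group has 3 libraries of polyA RNA, numbered 4, 5 and 6 for Zac1 and 1, 2 and 3 for EGFP, and both groups share the transfection, so no untransfected cells were compared. The share of cells that took up a construct is not given, a single cell line was used, and nothing states that the libraries of a group were separate cultures, so the p-values reflect the variation among these 6 libraries alone, which may be technical.

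Cells make cholesterol from acetyl-CoA through mevalonate, isoprenoid units, squalene and lanosterol, and the liver is a main site of this synthesis. The transcription factor SREBP2, encoded by Srebf2, drives the genes of the route and those of LDL uptake when membrane sterols run low. It is held in the endoplasmic reticulum by INSIG proteins when sterols are plentiful, which closes a feedback loop, since Insig1 is itself a gene that SREBPs drive. In promoters of such genes SREBPs bind sterol regulatory elements, commonly beside CCAAT boxes, bound by NF-Y, and GC boxes, bound by Sp1.

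The promoter stretches of 6 members are shown because SREBPs act through promoter elements of this kind. Whether they act through these stretches was not tested. Of the 7 members, 6 matched the RefSeq promoter table (GRCm38.p6, 250 bases before to 50 after each start), and Sqle had no entry. Each line runs 5′ to 3′ on the plus strand, upstream of the start, from 10 bases before the first to 10 bases after the last motif match, or to the last base before the start. Capitals mark matches on either strand to TCACNCCA (the core of a sterol regulatory element), CCAAT (on the other strand ATTGG) or GGGCGG (on the other strand CCGCCC), and no matches overlapped in these stretches. Dhcr7 has 3 starts in the table, and the one with the most upstream matches is shown.
Srebf2, chr15:82147048-82147250: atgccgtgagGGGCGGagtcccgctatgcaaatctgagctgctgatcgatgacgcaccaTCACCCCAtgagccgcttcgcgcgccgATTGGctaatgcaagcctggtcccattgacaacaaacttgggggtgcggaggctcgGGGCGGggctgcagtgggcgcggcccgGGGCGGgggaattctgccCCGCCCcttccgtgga
Hmgcs1, chr13:119690104-119690342: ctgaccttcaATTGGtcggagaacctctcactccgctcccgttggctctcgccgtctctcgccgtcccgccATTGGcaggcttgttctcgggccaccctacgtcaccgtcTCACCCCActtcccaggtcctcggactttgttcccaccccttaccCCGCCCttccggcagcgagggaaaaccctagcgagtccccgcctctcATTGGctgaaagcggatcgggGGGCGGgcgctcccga
Idi1, chr13:8885527-8885605: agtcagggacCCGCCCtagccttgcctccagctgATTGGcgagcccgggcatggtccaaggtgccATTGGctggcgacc
Lss, chr10:76531429-76531557: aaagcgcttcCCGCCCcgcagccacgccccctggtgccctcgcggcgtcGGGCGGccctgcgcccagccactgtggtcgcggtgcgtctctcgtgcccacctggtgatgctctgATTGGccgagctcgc
Dhcr7, chr7:143830017-143830209: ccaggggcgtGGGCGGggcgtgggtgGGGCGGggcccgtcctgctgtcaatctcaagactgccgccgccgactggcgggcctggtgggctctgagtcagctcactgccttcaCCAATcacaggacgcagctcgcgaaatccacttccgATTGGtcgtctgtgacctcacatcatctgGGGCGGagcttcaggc
Insig1, chr5:28071173-28071301: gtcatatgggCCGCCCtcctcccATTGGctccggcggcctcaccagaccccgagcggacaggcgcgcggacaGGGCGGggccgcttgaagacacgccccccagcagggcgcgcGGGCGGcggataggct

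The sterol element core was found in Srebf2, where TCACCCCA begins at position -162 from the start, and in Hmgcs1, where the same letters begin at position -137. That is 2 of 6 members, against 4.97% of the 27025 genes in the table. A CCAAT box was found in 6 of 6 members and in 41.1% of all genes, and a GC box in 6 of 6 members and in 38.2% of all genes. In these shares a gene counted if any of its starts had a match. Another Dhcr7 window (chr7:143822917-143823216) had a GC box and no CCAAT box. These boxes were not particular to the members: of 13 other synthesis genes, 12 had a CCAAT box and 11 a GC box. The sterol element core was found in 1 of those 13. The GC-rich palindrome GGGGCCCC, of the kind that Zac1 is known to bind, was found in 0 of 6 members and in 1.25% of all genes. The GC content of the windows that hold the stretches shown ran from 64.0% in Dhcr7 to 71.7% in Insig1 for 5 members. It was 52.3% in Idi1, beside a median of 52.7% over all windows. A match describes letters only, and a longer or looser form of an element was not searched.

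Library totals ran from 16104498 to 18302538 reads in Zac1 and from 14801240 to 15145092 in EGFP. Plagl1, the gene of the transfected factor, was read 106033, 135108 and 148382 times in the Zac1 libraries, against 39, 79 and 67 times in the EGFP libraries. The hepatocyte factor gene Hnf4a was present at 206 ± 4.005 CPM (read counts scaled to the usual common library size, with TMM factors) in Zac1 and 201 ± 9.91 CPM in EGFP (SD, n = 3 each), and the keratin genes Krt8 and Krt18 were abundant. Albumin was modest, at 34.7 ± 1.98 CPM in Zac1 and 34.6 ± 1.18 CPM in EGFP (SD, n = 3 each), and Apoa2 was at 0 in every library. Of the 12 hepatocyte markers listed, 9 reached the mean count of 10 that was set for testing. Markers of other liver cells were low: the summed level was 1.88 to 2.55 CPM in Zac1 and 1.96 to 2.48 CPM in EGFP for 5 macrophage and leukocyte genes, and 0.684 to 1.09 CPM in Zac1 and 0.472 to 0.799 CPM in EGFP for 5 endothelial genes. The 7 stellate and fibroblast genes summed to 2.24 to 2.72 CPM in Zac1 and 0.604 to 1.01 CPM in EGFP, with Lrat and Dcn at 0 throughout, and their part in the results was not tested. The 5 bile duct markers summed to 650 to 679 CPM in Zac1 and 673 to 713 CPM in EGFP, most of it Spp1 and Krt19. Not all of them were high: Epcam had 0, 2 and 1 reads in Zac1 4, 5 and 6, against 0, 0 and 1 in EGFP 1, 2 and 3. Along the second principal component of all tested genes, with 20.2% of the variance, Zac1 4 (11.5) and EGFP 1 (10.6) stood apart from the other 4 libraries (-8.68 to -2.46).

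No difference between Zac1 and EGFP cells was detected for any of the 7 members. By the quasi-likelihood test of edgeR, 0 of 7 members passed an adjusted p of 0.05, 0 had an unadjusted p under 0.05, and DESeq2 and limma's voom with quality weights each also called 0 of 7. Of 12130 tested genes, 459 passed by edgeR, which is 3.78% of them, with 3.12% higher and 0.668% lower in Zac1. An unadjusted p under 0.05 was found for 1921 of them by edgeR, and voom with quality weights called 1297. At those shares, 0 of 7 is near the background and is not a result particular to these genes. Fitted log2 fold changes of the members ran from -0.07 (Dhcr7) to 0.04 (Sqle), with 3 above 0 and 4 below 0 and a median of -0.0038, beside a median of -0.0016 over all tested genes. The edgeR 95% intervals of the 7 fold changes lay between 0.769 and 1.29. They cover the spread of these libraries under the main processing only, and are no bound on the effect of Zac1. With a least-squares correction for transcript GC content, Srebf2 had a log2 fold change of -0.19, outside its main log2 interval of -0.116 to 0.126. In a bulk sample, a change in the share of cells that express a gene and a change in RNA per cell cannot be told apart.

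**Figure D1:**
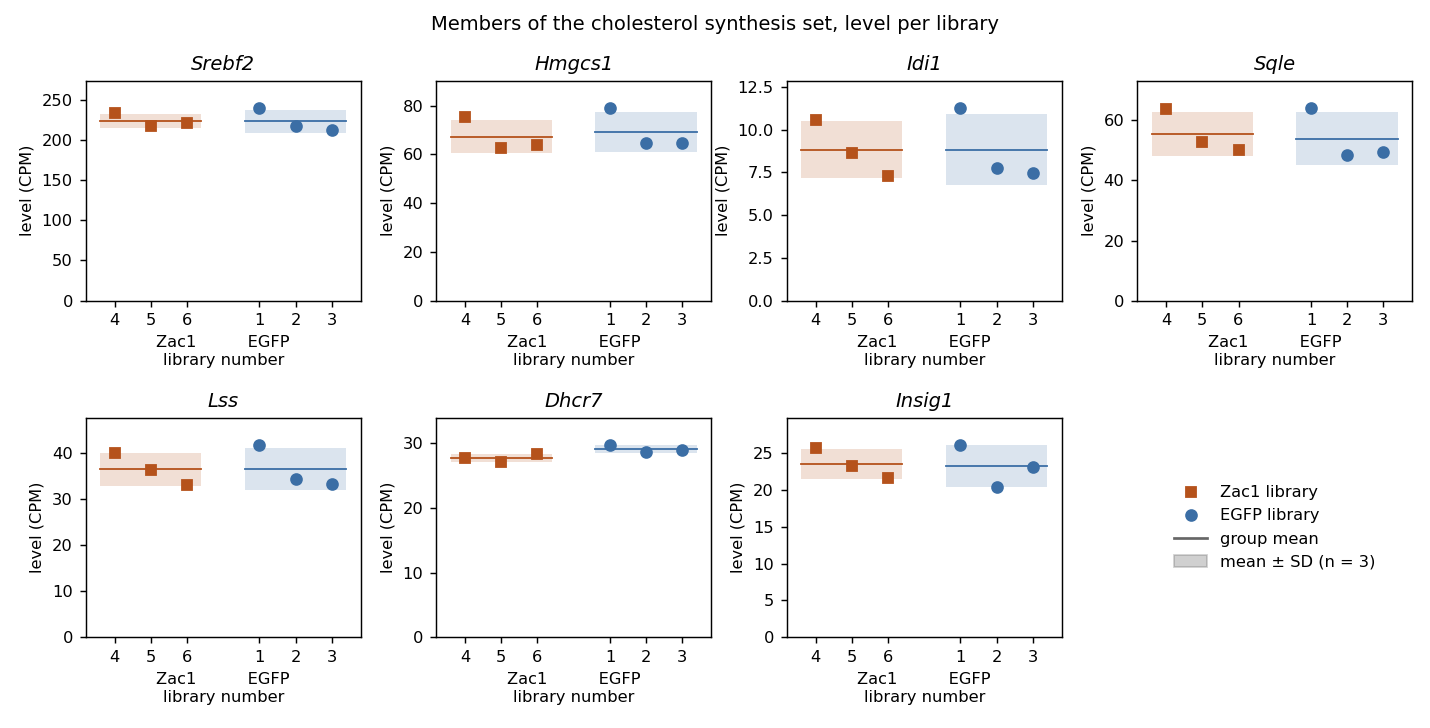
Level of each member in CPM (vertical axes from 0) in the 3 Zac1 libraries (squares, numbered 4 to 6) and the 3 EGFP libraries (circles, numbered 1 to 3), with the group mean as a line and the mean ± SD as a band. For 6 of 7 genes the highest square is Zac1 4 and the highest circle is EGFP 1, and the group means lie close together.

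Srebf2, the transcription factor gene at the head of the route, was the most abundant member. It had 234, 217 and 222 CPM in Zac1 4, 5 and 6, against 240, 218 and 213 CPM in EGFP 1, 2 and 3. The groups overlapped fully, with the single highest library in EGFP. Means were 224 ± 8.81 CPM in Zac1 and 223 ± 14.2 CPM in EGFP (SD, n = 3 each), a fold change of 1.004 with a 95% interval of 0.923 to 1.09 (log2 0.005, SE 0.06, edgeR adjusted p = 0.978). The gene lies on chromosome 15 (GRCm38, 82147181 to 82205379, plus strand), and the microRNA gene Mir33 lies within it on the same strand. Its interval was the narrowest of the set.

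Insig1 encodes the endoplasmic reticulum protein that retains SREBPs and also directs the breakdown of the rate-limiting enzyme of the route. It had 25.7, 23.3 and 21.6 CPM in Zac1 4, 5 and 6, against 26.1, 20.4 and 23.2 CPM in EGFP 1, 2 and 3. The libraries of both groups were interleaved. Its means were 23.5 ± 2.07 CPM in Zac1 and 23.2 ± 2.84 CPM in EGFP (SD, n = 3 each), with a fold change of 1.01 (95% interval 0.870 to 1.18, edgeR adjusted p = 0.959).

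Hmgcs1, the cytosolic HMG-CoA synthase that makes the precursor of mevalonate, had 75.2, 62.6 and 64.0 CPM in Zac1 4, 5 and 6, against 78.8, 64.7 and 64.5 CPM in EGFP 1, 2 and 3. Here Zac1 4 lay above EGFP 2 and 3, while EGFP 1 was the highest of the 6. The fold change was 0.969 (95% interval 0.851 to 1.10, edgeR adjusted p = 0.857).

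Idi1, the isopentenyl diphosphate isomerase that makes the allylic isoprenoid unit, was the least abundant member. It had 170, 147 and 134 reads, or 10.6, 8.63 and 7.28 CPM, in Zac1 4, 5 and 6, against 169, 116 and 111 reads, or 11.2, 7.78 and 7.49 CPM, in EGFP 1, 2 and 3. The lowest of the 6 libraries was Zac1 6 and the highest EGFP 1. Its fold change of 0.994 had the widest interval of the set, 0.769 to 1.29 (edgeR adjusted p = 0.988), so these libraries do not tell apart changes within those bounds. The annotated gene Gm48574 overlaps Idi1 on the opposite strand. Whether the counting used strand is not given in the sources used here.

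Sqle, squalene epoxidase, carries out the first oxygen-requiring step of sterol synthesis. It had 63.9, 52.8 and 50.1 CPM in Zac1 4, 5 and 6, against 63.9, 48.3 and 49.5 CPM in EGFP 1, 2 and 3. Zac1 4 and EGFP 1 were nearly equal and stood above the other 4 libraries. The fold change was 1.03 (95% interval 0.877 to 1.21, edgeR adjusted p = 0.896).

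Lss, lanosterol synthase, closes the sterol rings. It had 40.1, 36.4 and 33.0 CPM in Zac1 4, 5 and 6, against 41.8, 34.5 and 33.4 CPM in EGFP 1, 2 and 3. The groups overlapped, and EGFP 1 and Zac1 4 were again the highest. The fold change was 0.997 (95% interval 0.866 to 1.15, edgeR adjusted p = 0.990). The gene 4930483K19Rik overlaps Lss on the opposite strand, with the same limit as for Idi1.

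Dhcr7, the reductase of the last step in one branch to cholesterol, differed from the others in its spread. It had 27.8, 27.1 and 28.3 CPM in Zac1 4, 5 and 6, against 29.7, 28.6 and 29.0 CPM in EGFP 1, 2 and 3. All 3 Zac1 libraries lay below all 3 EGFP libraries. This was the only member whose groups did not overlap, which with Zac1 below held for 8.75% of tested genes and with Zac1 above for 11.9%. The fold change was 0.953, with a 95% interval of 0.857 to 1.06 that holds 1 (log2 -0.07, SE 0.07, edgeR adjusted p = 0.694). Dhcr7 varied least between libraries, with a coefficient of variation of 2.07% in Zac1 and 1.92% in EGFP, against 18.8% in Zac1 and 23.6% in EGFP for Idi1.

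**Figure D2:**
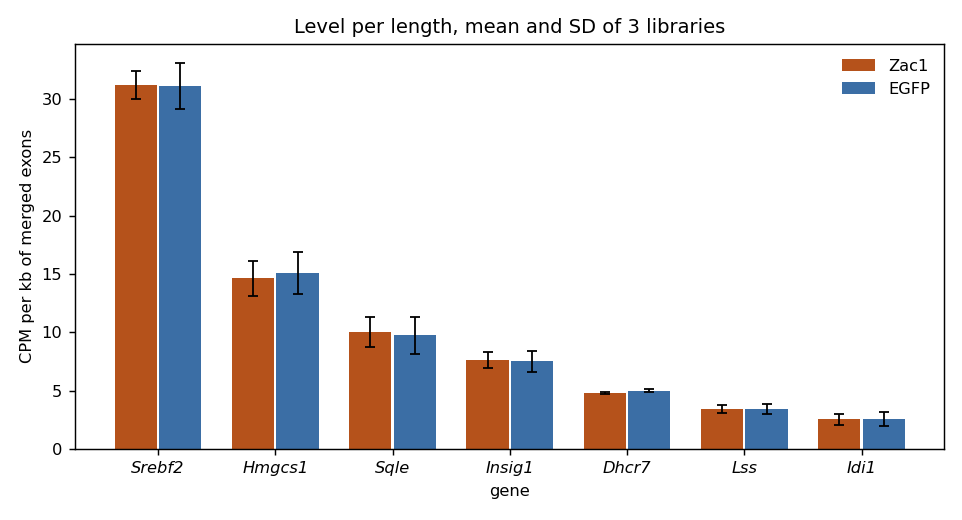
Level of each member in CPM per kb of merged exons, as the mean of 3 libraries with SD as error bars, in Zac1 and EGFP. Srebf2 is highest at 31.2 (Zac1) and 31.1 (EGFP) and Idi1 lowest at 2.52 in both groups.

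Per kilobase of merged exons, levels ordered the members alike in both groups. In Zac1 the order was Srebf2 (31.2 ± 1.23 CPM per kb), Hmgcs1 (14.6 ± 1.51), Sqle (10.02 ± 1.32), Insig1 (7.61 ± 0.669), Dhcr7 (4.76 ± 0.0988), Lss (3.39 ± 0.329) and Idi1 (2.52 ± 0.473), each as mean ± SD in CPM per kb with n = 3. In EGFP the same order ran through 31.1 ± 1.97, 15.1 ± 1.78, 9.72 ± 1.57, 7.50 ± 0.920, 4.998 ± 0.0959, 3.39 ± 0.423 and 2.52 ± 0.596 CPM per kb (SD, n = 3). Neighbours in this order did not overlap in any library, except Lss and Idi1 in EGFP. The order depends on the length used: per kilobase of the longest annotated transcript, Dhcr7 (9.84 CPM per kb in Zac1, 10.3 in EGFP) came above Insig1 (8.72 in Zac1, 8.61 in EGFP).

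Apart from Dhcr7, the members varied more between libraries of a group than between the group means. Zac1 4 was the highest Zac1 library and EGFP 1 the highest EGFP library for 6 of 7 members, a pattern looked for after the levels were seen and found for 20.3% of all tested genes. The exception was Dhcr7, where EGFP 1 was highest of its group but Zac1 6 was highest of the Zac1 libraries. Idi1 was 1.33 times the mean of the other two libraries in Zac1 4 and 1.47 times in EGFP 1, ratios above those of 97.1% of tested genes in Zac1 and 97.8% in EGFP. For Sqle the ratios were 1.24 in Zac1 4 and 1.31 in EGFP 1, for Hmgcs1 1.19 and 1.22, for Lss 1.16 and 1.23, and for Insig1 1.15 and 1.20, each with Zac1 4 first. Srebf2 moved less, at 1.07 in Zac1 4 and 1.11 in EGFP 1, and Dhcr7 stood at 1.002 in Zac1 4 and 1.03 in EGFP 1. Over all tested genes the median ratios were 0.992 in Zac1 4 and 0.995 in EGFP 1.

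These library ratios were larger than counting error for 6 members, but Zac1 4 and EGFP 1 were picked because they were seen to be highest. Intervals from the same counts therefore cannot test the pattern. They also cannot show that it is particular to these genes. Every pair of libraries within a group differed beyond sampling noise, and the share of all tested genes with such intervals is not given here. With reads of the other libraries of the group pooled, exact 95% intervals, which cover counting error only, were 1.10 to 1.62 in Zac1 4 and 1.20 to 1.80 in EGFP 1 for Idi1, and 1.15 to 1.34 in Zac1 4 and 1.20 to 1.42 in EGFP 1 for Sqle. The lower bounds for Srebf2, Hmgcs1, Lss and Insig1 were 1.03, 1.11, 1.05 and 1.02 in Zac1 4 and 1.07, 1.13, 1.11 and 1.05 in EGFP 1. For Dhcr7 both intervals held 1 (0.894 to 1.12 in Zac1 4, 0.918 to 1.16 in EGFP 1). No test between these libraries was made, since the labels put them in no group of their own. The libraries were also matched by this pattern, which was seen in these same genes and which no label gives. Zac1 4 minus EGFP 1 gave log2 differences from -0.10 (Dhcr7) to -0.0010 (Sqle). The mean of Zac1 5 and 6 over that of EGFP 2 and 3 gave -0.06 (Dhcr7) to 0.07 (Sqle). With Zac1 4 and EGFP 1 both left out, edgeR again called 0 of 7 members, with log2 fold changes from -0.05 to 0.08.

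**Figure D3:**
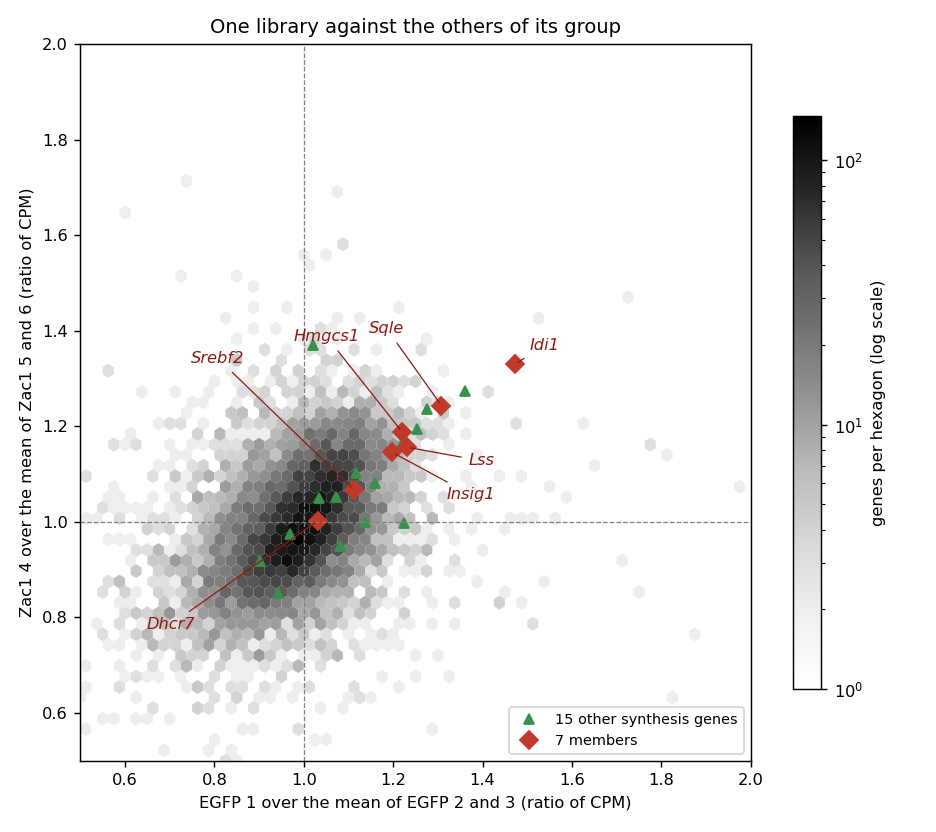
Ratio of CPM in Zac1 4 to the mean of Zac1 5 and 6 (vertical) against the ratio of CPM in EGFP 1 to the mean of EGFP 2 and 3 (horizontal). Diamonds are the 7 members, triangles the 15 other synthesis genes, and grey hexagons the 11823 tested genes whose ratios lie between 0.5 and 2 (307 lie outside); Idi1 sits farthest up and right among the members, at 1.33 in Zac1 4 and 1.47 in EGFP 1, and Dhcr7 beside the centre.

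In other measures Zac1 4 and EGFP 1 were also at the extreme of their groups, but EGFP 3, which did not share the library pattern, lay close to them. The read-weighted GC content of transcripts was 48.6%, 48.9% and 49.0% in Zac1 4, 5 and 6 and 48.5%, 48.8% and 48.6% in EGFP 1, 2 and 3, so that Zac1 4 and EGFP 1 were the lowest of their groups. Mitochondrial transcripts took 1.79%, 1.66% and 1.59% of reads in Zac1 4, 5 and 6 and 1.85%, 1.70% and 1.81% in EGFP 1, 2 and 3. Their part in the members' levels was not tested. With offsets for transcript GC content, 7 of 7 members were highest in both Zac1 4 and EGFP 1, for either of 2 GC curves.

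The 5 genes whose levels over the 6 libraries were most like the mean standardised profile of the members, among 10333 other genes averaging 50 or more reads, were Apc (Pearson's r 0.999), Stard4 (0.996), Skp2 (0.992), Uchl5 (0.992) and Hspa4l (0.991). Stard4 encodes a soluble sterol transfer protein and was also on the list of uptake and transport genes. It had 46.8, 37.3 and 35.98 CPM in Zac1 4, 5 and 6, against 49.3, 36.1 and 37.0 CPM in EGFP 1, 2 and 3, so the same 2 libraries stood high. These r values rest on 6 points and largely on those 2 libraries: without Zac1 4 and EGFP 1, r was 0.663 for Apc, 0.808 for Stard4, 0.987 for Skp2, 0.116 for Uchl5 and 0.471 for Hspa4l. The members' own r with their mean ran from 0.883 (Insig1) to 0.984 (Hmgcs1) for 6 of them and was 0.383 for Dhcr7.

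The other enzymes of the route gave no call either. Of 6 further mevalonate pathway genes and 9 further genes from squalene to cholesterol, 15 of 15 were tested, and edgeR called 0 as higher and 0 as lower. Log2 fold changes were above 0 for 7 of the 15 and below 0 for 8, with a median of -0.0025. An unadjusted p under 0.05 was found for 1 of the 15 by edgeR, beside 1921 of all 12130 tested genes. DESeq2 called 0 of the 15 and voom with quality weights 1, beside 1297 of all tested genes with voom. That gene was Sc5d, sterol C5-desaturase, with 51.1, 47.3 and 45.5 CPM in Zac1 4, 5 and 6, against 59.3, 51.9 and 54.3 CPM in EGFP 1, 2 and 3. All Zac1 libraries lay below all EGFP libraries (log2 fold change -0.20, SE 0.07, edgeR adjusted p = 0.168). Fdft1, squalene synthase, stood at -0.13 (SE 0.09, edgeR adjusted p = 0.522). In the mevalonate list the smallest p belonged to Ggps1, which makes geranylgeranyl diphosphate (log2 fold change -0.13, SE 0.08, edgeR adjusted p = 0.432), and Mvk, mevalonate kinase (0.10, SE 0.11, edgeR adjusted p = 0.715).

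The library pattern was also found for part of these enzymes. Of the 15, 8 were highest in both Zac1 4 and EGFP 1. They were 2 of the 6 mevalonate pathway genes and 6 of the 9 from squalene to cholesterol. Below the mean of the other libraries in both were Mvk (0.918 in Zac1 4, 0.902 in EGFP 1), Fdps (0.851 and 0.942) and Ebp (0.975 and 0.969). Msmo1, a sterol C4-methyl oxidase, was 1.27 times the other Zac1 libraries in Zac1 4 and 1.36 times the other EGFP libraries in EGFP 1, Cyp51, lanosterol demethylase, 1.24 and 1.28 times, and Hsd17b7, a sterol ketoreductase, 1.19 and 1.25 times, each with Zac1 4 first. Of the other lists, 1 of 11 SREBP processing and sterol sensing genes (Mbtps2, the protease that makes the second cut in SREBPs), 1 of 13 uptake and endosomal genes (Stard4) and 0 of 6 efflux and storage genes were highest in both, beside 20.3% of all tested genes. Soat2, which esterifies cholesterol, ran the other way, at 0.586 in Zac1 4 and 0.555 in EGFP 1.

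Among genes that process or sense with the SREBPs, 0 of 11 passed the edgeR test. An unadjusted p under 0.05 was found for 1 of the 11, beside 1921 of all 12130 tested genes. DESeq2 called 0 and voom with quality weights 1, beside 1297 of all tested genes with voom. That gene was Rnf139, a sterol-sensing ubiquitin ligase of the endoplasmic reticulum (log2 fold change -0.22, SE 0.08, edgeR adjusted p = 0.171), with 49.96, 48.4 and 43.4 CPM in Zac1 4, 5 and 6, against 54.7, 50.3 and 59.5 CPM in EGFP 1, 2 and 3. Scap, the escort protein of SREBPs, stood at 0.11 (SE 0.07, edgeR adjusted p = 0.461). Of the paralogs of the members, Srebf1 stood at 0.02 on the log2 scale (edgeR adjusted p = 0.930) and Insig2 at 0.00048 (edgeR adjusted p = 0.998).

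**Figure D4:**
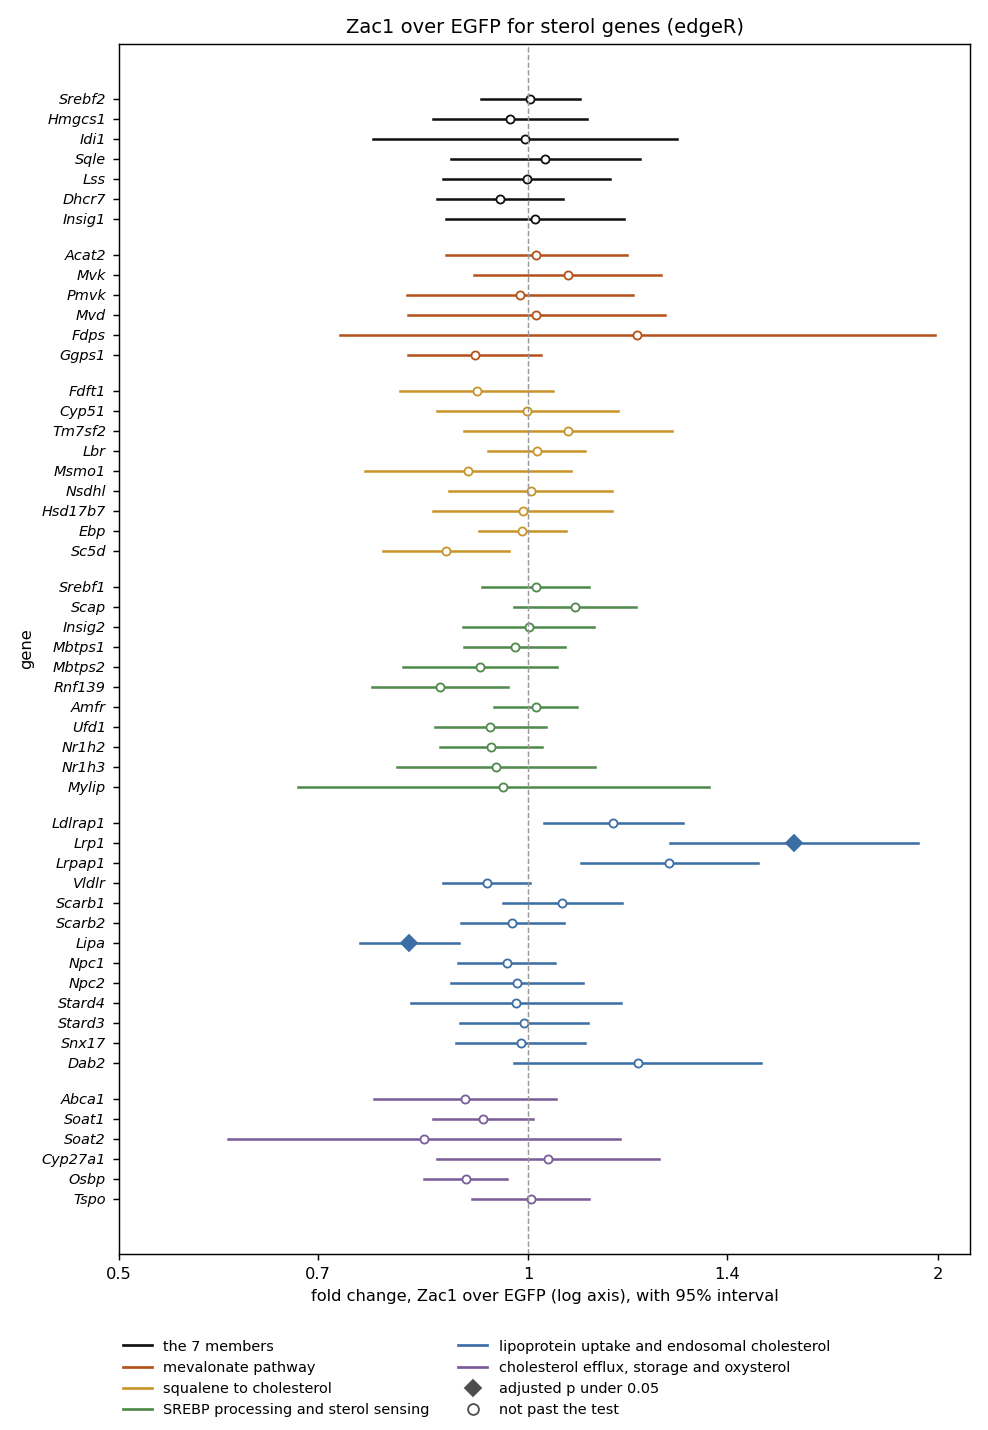
Fold change of Zac1 over EGFP on a log axis, with 95% intervals from edgeR, for the 7 members (black) and the 45 tested genes of 5 lists of the same pathway. Filled diamonds mark genes with an adjusted p under 0.05, Lrp1 at 1.57 and Lipa at 0.817; intervals of all 7 members cross 1.

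The 2 genes of the pathway that passed lay in lipoprotein uptake and lysosomal handling. Of 13 tested there, 1 rose and 1 fell by edgeR, and DESeq2 called the same 2, beside 3.78% of all tested genes called by edgeR. With voom and quality weights 3 of the 13 passed, beside 1297 of all 12130 tested genes. They were Lrp1, Lipa and Lrpap1, the last a chaperone of receptors of this family (1.27-fold, edgeR adjusted p = 0.0827). Lrp1, a large endocytic receptor of remnant lipoproteins and many other ligands, had 16.9, 18.3 and 16.4 CPM in Zac1 4, 5 and 6, against 13.5, 11.1 and 8.23 CPM in EGFP 1, 2 and 3. The groups did not overlap. It rose 1.57-fold, to 17.2 ± 0.980 CPM in Zac1, against 10.9 ± 2.64 CPM in EGFP (SD, n = 3 each; log2 fold change 0.65, SE 0.14, edgeR adjusted p = 0.0190). Lipa, the lysosomal acid lipase that frees cholesterol from esters taken up with lipoproteins, had 122, 113 and 111 CPM in Zac1 4, 5 and 6, against 141, 136 and 147 CPM in EGFP 1, 2 and 3. All Zac1 libraries lay below all EGFP libraries, and it fell to 115 ± 5.56 CPM in Zac1, against 141 ± 5.74 CPM in EGFP (SD, n = 3 each; log2 fold change -0.29, SE 0.06, edgeR adjusted p = 0.00829). Both calls ended without Zac1 5, Zac1 6 or EGFP 3 (edgeR adjusted p up to 0.105 for Lrp1 and 0.0810 for Lipa), and that of Lrp1 also with offsets from a least-squares GC curve (0.0651). The difference between these genes and the members was not tested.

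In the list of efflux, storage and oxysterol genes, 0 of 6 tested genes passed by edgeR. An unadjusted p under 0.05 was found for 1 of the 6, beside 1921 of all 12130 tested genes. DESeq2 called 0 and voom with quality weights 1, beside 1297 of all tested genes with voom. That gene was Osbp, an oxysterol-binding lipid transfer protein, with a log2 fold change of -0.15 (SE 0.05, edgeR adjusted p = 0.102), which passed with offsets from a robust (0.0301) and a least-squares GC curve (0.00691). Soat1, the main cholesterol esterifying enzyme outside hepatocytes and gut, stood at -0.11 (SE 0.06, edgeR adjusted p = 0.369). Of the 3 listed genes below the count minimum, Abcg1, a cholesterol exporter, was at 0 in every library.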

How the data were processed

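PolyA RNA of 6 libraries of AML12 cells was sequenced after a directional library preparation, per the labels' protocols. The submitters' processing notes name FastQC, STAR, HTSeq and DESeq2; for versions, genome build, annotation and use of strand, the sources used here give nothing. The table the authors deposited is called normalized, but its values are whole numbers whose totals differ between libraries (14801240 to 18302538) and in which 0 of the whole numbers 1 to 40 is missing in any library, so they were treated as raw read counts per gene. Of 49585 gene IDs, 49326 carried a symbol.

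The 12130 genes averaging 10 or more reads per library were tested with edgeR 4.0.16 in R 4.3.3 (TMM scaling, quasi-likelihood test, two-sided, Zac1 over EGFP, prior count 0.125, Benjamini-Hochberg over all tested genes, threshold 0.05), the test being checked on simulated counts. Positive fold changes mean higher in Zac1. Intervals are 95%. CPM used TMM-scaled library sizes. Lengths, GC content and positions came from GENCODE M21 on GRCm38, and promoters from RefSeq; gene IDs were matched by symbol. Ratios between libraries carry exact (Clopper-Pearson) intervals for counting error only. Alternatives were 3 other scalings, 2 other count filters, robust variance, 2 GC corrections, DESeq2 1.42.0, limma 3.58.1 voom with quality weights, and leaving out libraries. Named were all members, of each pathway list every gene that passed or otherwise the 2 with the smallest p, and the 5 genes most like the members; library-pattern examples and paralogs were chosen after their values were seen. The members and lists were chosen with earlier results of these data known. Replicate pairs differed by more than sampling noise (chi-square per degree of freedom 2.31 to 8.98). Proteins were not used here, and 1 gene of the squalene to cholesterol list is not reported here.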

Additional observations from a re-analysis of the deposited data

How the results depend on the processing

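The count of members called was 0 under every alternative run, and the lowest adjusted p of any member was 0.0965 (Srebf2, least-squares GC curve). Of all genes, 459 were called (378 higher, 81 lower in Zac1), against 979 with no count filter, 241 among genes averaging 50 or more reads, 1101 with the least-squares GC curve (339 higher, 762 lower), 1297 with voom (797 higher, 500 lower) and 1461 without EGFP 1 and Zac1 4 together (853 higher, 608 lower). Leaving out 1 library gave 206 (without Zac1 5) to 963 (without Zac1 4), with 221 without Zac1 6 and 236 without EGFP 3. Other pathway genes called were 2, against 4 with either GC curve or without both libraries, 6 with voom, and 0 (without Zac1 5, Zac1 6 or EGFP 3) to 4 (without Zac1 4) with 1 library left out. Beyond Lrp1 and Lipa, the named genes that passed somewhere were Osbp, Sc5d (0.0453 without Zac1 4) and Rnf139 (0.00899 without both libraries). The cause was not tested.

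Of 306 recomputed log2 fold changes of named genes, 258 kept direction and side of the threshold, 7 lost their call, 7 gained one and 34 changed sign, all 34 without a call. Srebf2 became -0.00028 with median-of-ratios scaling and with DESeq2, -0.0012 with voom, -0.073 with the robust and -0.19 with the least-squares GC curve, where the median of all genes was -0.045. Hmgcs1 became 0.0085 with the robust GC curve. Idi1 became 0.0075 with upper-quartile scaling, 0.058 (robust) and 0.046 (least squares) with GC curves, 0.060 without both libraries and 0.035 with voom. Lss became 0.012 with upper-quartile scaling, 0.0017 with library totals, 0.0015 with the robust GC curve, 0.035 without both libraries and 0.024 with voom. With the least-squares GC curve Insig1 became -0.0082, Mvk -0.046 and Scap -0.14. With 1 library left out, Srebf2 ranged from -0.033 to 0.061, Hmgcs1 from -0.13 to 0.061, Idi1 from -0.16 to 0.21, Sqle from -0.069 to 0.19, Lss from -0.076 to 0.11 and Insig1 from -0.068 to 0.11. The members highest in both Zac1 4 and EGFP 1 numbered 6 under 3 other scalings and 7 under both GC curves, alternatives chosen after seeing the data.

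No paired analysis was made, because the labels do not say whether libraries of the groups were prepared in matched sets. With 3 libraries a group, the interval was widest for Idi1.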
